A study of Mus musculus with 8 samples.

Results

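TEC genes are GENCODE models still waiting for experimental proof: unspliced stretches of transcription with signs of a poly(A) tail and no assigned function. In HL1 cells, 46 assembled short-read loci were taken as TEC loci. They were selected on position and on their own values: each shared at least 1 bp on the same strand with an autosomal TEC gene of GENCODE M21, overlapped no gene of another type on that strand, and was above 0 in at least 1 of the 6 libraries. Another 4 loci met the position rule and were listed at 0 in every library (Gm37243, Gm10286, 1700039I01Rik and 9430053O09Rik). The table held 65265 rows, of which 20637 were assembled loci on the mouse genome. Of these, 850 touched an autosomal TEC gene, and 800 (94.1%) were set aside because they also overlapped a gene of another type, in 746 cases a protein-coding gene. The annotation held 3204 autosomal TEC genes, and each of the 46 loci belonged to a different one. Loci are called here by the symbol of that gene.

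HL1 is a mouse cell line derived from atrial cardiomyocytes, grown here in Claycomb medium with norepinephrine. Nuclei were extracted with urea and detergent, which leaves a chromatin pellet and a soluble nucleoplasm. Stranded short-read libraries were made from the chromatin and the nucleoplasm of 3 cultures, so the fractions share cultures (the labels do not say which libraries belong together), and long-read cDNA libraries from 2 chromatin samples. A label field names the chromatin fraction for the nucleoplasm libraries too, and the libraries were grouped by their titles. Whole-number gene counts, as StringTie gave them, could be recovered from the normalized counts. They are called reads here, and whether they equal sequenced reads was not checked. For the chromatin libraries, in order of replicate number, they came to 100595246, 93400735 and 91657034 reads, and for the nucleoplasm libraries to 102000472, 96684935 and 121773350.

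RNA made by a gene stays in the chromatin fraction while it is being transcribed or where it is tethered to DNA, and released transcripts are recovered from the nucleoplasm. Unspliced noncoding RNAs that start near coding promoters, or lie antisense within coding genes, are commonly rich in chromatin. TEC models are kept apart from lincRNA and antisense models in the annotation because the evidence for each is thin, so their levels and ends in a given cell are of interest in themselves.

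The fractions and the cell type were checked on genes outside the TEC loci. Malat1, a nuclear lncRNA, averaged 1628247 normalized counts in chromatin and 115045 in nucleoplasm, a log2 fold change of 3.82 ± 0.20 (SE; limma, adjusted p = 3.84e-05). Gapdh, a glycolytic mRNA, had a log2 fold change of -2.07 ± 0.25 (limma, adjusted p = 0.000893), and both controls kept their direction under every scaling tried. Of 11 atrial cardiomyocyte markers 9 were above 0 in all libraries, among them Ryr2, Gata4, Actc1 and Myl7, while Tnnt2 and Myh6 had no row under the naming rule. The 4 fibroblast markers were also above 0 in all libraries, led by Col1a1 at 101002 to 344726 normalized counts. Of 3 endothelial markers Cdh5 was at 0, Pecam1 was above 0 in some libraries, and Kdr ran from 808 to 2570 normalized counts. Myh11 of smooth muscle ran from 345 to 868, and the immune marker Ptprc reached at most 4.07. The cardiomyocyte list, led by Ryr2 in chromatin, summed to 352486, 346524 and 230430 across the chromatin libraries and to 165400, 174453 and 96427 across those of nucleoplasm. The fibroblast list summed to 101764, 113724 and 117258 in chromatin and to 217537, 212681 and 347926 in nucleoplasm. Replicate 3 thus held the lowest cardiomyocyte sum and the highest fibroblast sum of each fraction, and its part in the results was not tested beyond leaving it out. Gata4 was instead highest in replicate 3, at 80244, 77622 and 82875 in chromatin and 20568, 19628 and 20977 in nucleoplasm. Each other cardiomyocyte marker with a row was lowest there. In such bulk samples fewer cells of a type and less RNA per cell cannot be told apart.

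The 46 loci lay on 14 autosomes, 24 on the plus and 22 on the minus strand, with the most on chromosome 6 (7 loci). Their spans ran from 204 to 52245 bp with a median of 2402.5 bp, against 11824 bp for all assembled loci. At the edge of the rule, Gm42934 shared only 1 bp with its TEC gene, while for 43 loci the overlap was at least 0.5 of the locus or of the gene. The TEC gene covered a median of 70.1% of its locus and under 50% of it at 18 loci, among them Gm38320 (3.13%), Gm43219 (3.71%), Gm44101 (9.75%), Gm37416 (11.7%) and Gm43891 (45.1%), so counts under a symbol can include reads outside the TEC gene. These examples were chosen after the values were seen. The lowest mean that admitted a locus was that of Gm41504, above 0 in chromatin replicate 2 only, with 0.699 normalized counts over the chromatin libraries. Just outside were the 4 loci listed at 0. By symbol or Ensembl identifier, RefSeq listed 20 of the TEC genes, 16 as lncRNA and 2 as protein-coding. RefSeq models under other names were not counted. Gm33378, Gm37500 and Gm43823 were not among the 20, yet each locus had the span of a RefSeq model listed in the long reads. A gene on the opposite strand started within 1000 bp of 15 loci.

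The mean over the 6 libraries was under 10 normalized counts for 17 TEC loci, from 10 to 100 for 14 and at least 100 for 15. The same bins held 11919, 8175 and 15736 of all 35830 rows. All 6 libraries were above 0 for 36 loci, and 3 loci (Gm44101, Gm45548 and Gm41504) were above 0 in 1 library only. Summed over the loci, normalized counts were 7519, 7078 and 7666 in chromatin and 4502, 4586 and 4107 in nucleoplasm. Gm49089 alone gave 18.7% of the sum, and the 5 most abundant loci 56.1%.

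Chromatin was compared with nucleoplasm to ask where RNA of these loci was held. The fit was made with limma on log2(normalized count + 1) over all 35830 rows above 0 in at least 1 library, which draws the fold changes of low loci towards 0. At an adjusted p under 0.05, 15 of 46 TEC loci (32.6%) were higher in chromatin, beside 26.9% of all rows, and 5 (10.9%) were lower, beside 20.9% of all rows. More than 4-fold higher were 10 (21.7%), beside 15.4% of all rows. More than 4-fold lower were 0, beside 4.87% of all rows; limma gave 1 such locus at an unadjusted p under 0.05, and edgeR and DESeq2 gave 0 with or without adjustment. That locus, Gm43823, had 0, 15.7 and 0 in chromatin and 42.4, 32.4 and 16.7 in nucleoplasm (log2 fold change -3.53 ± 1.20; limma, adjusted p = 0.0544) and was named after its values were seen. Gm43823 was called lower in 6 of 16 other settings: without chromatin replicate 2 (limma, adjusted p = 0.00264), with replicate number as a block (0.047), with either filter on low rows (0.045 and 0.0442), with a pseudocount of 10 (0.0403) and with quantile normalization (0.0248). The block, which takes libraries of the same number as 1 culture, gave 16 higher and 8 lower in all, beside 28.8% and 23.6% of all rows. In the fit with no block, 3 loci were lower when nucleoplasm replicate 1 was left out, beside 18.7% of all rows. The 3 chromatin libraries lay above all 3 nucleoplasm libraries at 18 loci, beside 31.5% of all rows, and below them at 8, beside 23.8%. Of all assembled loci 32.5% were higher and 35.5% lower, so the share of TEC loci higher in chromatin was near that of assembled loci. The median log2 fold change was 0.76 over the TEC loci, 0.38 over all rows and 0.023 over assembled loci. With loci at 0 in nucleoplasm set at their bound, the TEC median was 0.47. The split of calls moved with the scaling: 21 higher and 0 lower with ERCC standards, beside 34.8% and 8.67% of all rows, and 8 higher and 9 lower with quantile normalization, beside 20.2% and 22.8%. The median of all rows moved by 0.46 with ERCC standards and by -0.37 with quantile normalization. With ERCC scaling limma gave 1 locus lower at an unadjusted p under 0.05.

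Among loci with a mean of at least 50 normalized counts, 7 rose in chromatin, with Gm37621, Gm37352, Gm43970 and Gm43891 ahead by fold change. Of all rows 34.6% were higher and 8.59% lower at a mean of 10 to 100, and 30.7% and 42.5% at a mean of 100 or more. In the same bins 5 of 14 and 6 of 15 TEC loci were higher, and 2 and 3 were lower. The share of all rows at a mean of at least 50 was not computed. Gm43891 (chr6:90292636-90299535, plus strand, outside any opposite-strand gene) had 1661, 1419 and 1317 normalized counts in chromatin and 227, 179.8 and 180.5 in nucleoplasm. Every chromatin library stood above every nucleoplasm library. The means were 1465 ± 177 and 196 ± 27.3 (SD), and the log2 fold change was 2.90 ± 0.15 (SE; limma, adjusted p = 3.71e-05). Gm37352 (chr8:84200805-84204712) had 204, 182 and 253 in chromatin and 11.1, 15.6 and 27.5 in nucleoplasm. Its fractions were far apart although nucleoplasm replicate 3 was the highest of its group, and the log2 fold change was 3.57 ± 0.37 (limma, adjusted p = 0.000433). Gm43970 (chr2:39725343-39725842) had 297, 277 and 389 in chromatin against 27.3, 27.6 and 37.7 in nucleoplasm. This locus of 500 bp was among the densest over the 6 libraries, at 352 normalized counts per kb of span. Its log2 fold change was 3.34 ± 0.23 (limma, adjusted p = 9.2e-05).

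Smaller rises were seen at Gm33378, Gm31024 and Gm34220. Gm33378 (chr10:82011695-82016869) had 523, 471 and 552 in chromatin and 162, 134 and 157 in nucleoplasm, and its log2 fold change was 1.77 ± 0.13 (limma, adjusted p = 0.000124). The replicates of each fraction lay close together. Gm31024 (chr7:28167273-28169671), which starts within 1000 bp of the opposite-strand gene Fbl (the nucleolar methyltransferase fibrillarin), had 129, 110.04 and 118 against 23.2, 43.1 and 29.7. Its log2 fold change was 1.90 ± 0.28 (limma, adjusted p = 0.00202). Gm34220 overlaps in part Yy1, a zinc finger transcription factor, on the other strand. It had 506, 508 and 366 in chromatin and 284, 304 and 244 in nucleoplasm, a log2 fold change of 0.72 ± 0.18 (limma, adjusted p = 0.0161). The fractions of all 3 loci did not overlap. The call of Gm34220 was lost without chromatin replicate 1 (limma, adjusted p = 0.0615) or chromatin replicate 2 (limma, adjusted p = 0.0577).

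Lower in chromatin were Gm13320, Gm38166, Gm44950, 1700001G17Rik and Gm6740. Gm38166 (chr3:45774990-45775768) had 129, 124 and 127 normalized counts in chromatin and 278, 269.7 and 262 in nucleoplasm, a log2 fold change of -1.09 ± 0.12 (limma, adjusted p = 0.000555). Both groups were tight, and nucleoplasm was the higher in every library. Gm13320 (chr2:14189556-14189938), first in counts per kb over the 6 libraries at 379.97, had 78.3, 99.6 and 68.7 against 179.9, 234 and 213. Its log2 fold change was -1.34 ± 0.20 (limma, adjusted p = 0.0023). In chromatin alone Gm43970 was the denser, at a mean of 321 over 500 bp against 82.2 over 383 bp for Gm13320. Gm44950 lies 2002 bp downstream of Arpin on the same strand, the only TEC locus within 5000 bp downstream of a coding gene. It had 95.5, 103 and 84.3 in chromatin and 167, 187 and 170.3 in nucleoplasm (log2 fold change -0.89 ± 0.16; limma, adjusted p = 0.00417). 1700001G17Rik had 34.6, 37.7 and 36.4 against 64.7, 65.9 and 60.9 (-0.80 ± 0.21; limma, adjusted p = 0.0201). Gm6740 had 59.97, 54.5 and 49.96 against 107, 76.7 and 98.6 (-0.76 ± 0.22; limma, adjusted p = 0.0292). The call of 1700001G17Rik was lost without nucleoplasm replicate 1 or 2 (limma, adjusted p = 0.0674 and 0.0665). That of Gm6740 was lost without chromatin replicate 2 or 3 (limma, adjusted p = 0.0708 and 0.0553) or without nucleoplasm replicate 1 or 3 (limma, adjusted p = 0.104 and 0.0668). None of the 5 was called with ERCC scaling, where their adjusted p ran from 0.118 to 0.933 by limma. The log2 fold changes were then -0.62 for Gm13320, -0.36 for Gm38166, -0.16 for Gm44950, -0.081 for 1700001G17Rik and -0.036 for Gm6740, the last 3 near 0.

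Several of these loci share sequence with other genes, and how reads were divided among copies is not known. This was looked at after their values were seen, by asking which 50-base words of each TEC transcript occur in transcripts of genes that do not overlap the locus. Only the annotated transcript was searched, so the parts of a locus beyond it were not. No such word was found for 25 of the 46 transcripts. Gm6740 shared 88.0% of its words, 71.2% with Nrbf2 (a regulator of autophagy), and Gm38166 shared 43.1% with Ufm1 (a ubiquitin-like modifier). RefSeq lists Gm6740 as a pseudogene. A processed pseudogene on the same strand lay 166 bp upstream of the locus of Gm6740 and 165 bp upstream of that of Gm38166. Gm13320 shared 58.7% with Smarce1, a subunit of SWI/SNF remodelling complexes, and with the processed pseudogene Gm8494. The row of Ufm1 was itself lower in chromatin, at 1239, 1160.1 and 1323 against 2194, 2009 and 2057 (log2 fold change -0.75; limma, adjusted p = 0.000698). Nrbf2 had a log2 fold change of -0.46 (limma, adjusted p = 0.0451) and Gm8494 one of -1.05 (limma, adjusted p = 0.00066), while Smarce1 was higher in chromatin by 0.98 (limma, adjusted p = 0.000314). The counts of Gm6740, Gm38166 and Gm13320 are uncertain for this reason, and its part in their falls was not tested. Gm44950 shared 8.54%, and 1700001G17Rik shared none. Of the rises Gm33378 shared 5.76%, Gm37621 shared 2.90%, with parts of 182 genes, Gm31024 shared 1.997%, Gm43970 shared 0.675% and Gm34220 shared 0.602%, while the transcripts of Gm43891 and Gm37352, which cover 45.1% and 55.8% of their loci, shared none. The locus of Gm43970 makes up 13.9% of the transcript searched.

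Gm49089, first in mean over the 6 libraries and in nucleoplasm but behind Gm43891 in chromatin, did not pass the test in the fit without a block. The locus (chr15:33831777-33834728) had 1039, 1054 and 788 in chromatin and 1345, 1291 and 1123 in nucleoplasm, and its log2 fold change was -0.39 ± 0.15 (limma, adjusted p = 0.0737). All nucleoplasm libraries stood above all chromatin libraries. With replicate number as a block it was called lower (limma, adjusted p = 0.0114), as it was with edgeR (adjusted p = 0.0286) and without both libraries numbered 3 (limma, adjusted p = 0.0109). Among all settings tried its adjusted p reached 0.604, and its log2 fold change ran from -0.49 to 0.34. It shared 38.7% of its words with other genes, the most with G430049J08Rik, another TEC locus. G430049J08Rik (span 204 bp) had 71.2, 67.1 and 55.2 in chromatin and 87.9, 73.1 and 65.2 in nucleoplasm, which overlap. 9430081H08Rik, divergent to Hyou1 (an endoplasmic reticulum chaperone), had 468, 402 and 1092 against 344, 337 and 438. Chromatin replicate 3 was over 2 times its partners, and the log2 fold change of 0.67 ± 0.39 did not pass (limma, adjusted p = 0.216). Gm10524, at 293 counts per kb, had 215, 256 and 164 against 222, 250.5 and 175, with groups that overlap in full (log2 fold change -0.036; limma, adjusted p = 0.908); with ERCC scaling it was 0.69 (limma, adjusted p = 0.0363).

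Some loci varied with the replicate number in both fractions. These were singled out after their values were seen. D330025C20Rik, which overlaps in part Kcng2 (a voltage-gated potassium channel subunit) on the other strand, had 160, 193 and 78.1 in chromatin and 271, 312 and 116 in nucleoplasm. Replicate 3 was the lowest of each fraction, and the row of Kcng2 showed the same order, with 2936, 3464 and 1178 against 4341, 4595 and 1918. Gm10616, divergent to Polg (the mitochondrial DNA polymerase), had 57.9, 61.8 and 216 in chromatin and 17.2, 21.6 and 59.4 in nucleoplasm, with replicate 3 the highest of each. Neither passed the test with all libraries, at log2 fold changes of -0.67 (limma, adjusted p = 0.338) for D330025C20Rik and 1.67 (limma, adjusted p = 0.0998) for Gm10616. With replicate number as a block the adjusted p was 0.00745 and 0.00288 by limma. With ERCC scaling the log2 fold change of D330025C20Rik was 0.058 (limma, adjusted p = 0.913) and that of Gm10616 was 2.39 (limma, adjusted p = 0.0498). Gm10616 was also called higher without nucleoplasm replicate 3 alone (limma, adjusted p = 0.0468). Without replicate 3 of both fractions, an alternative chosen after seeing the data, the log2 fold change of D330025C20Rik was -0.72 (limma, adjusted p = 0.0227) and that of Gm10616 was 1.59 (limma, adjusted p = 0.00776). Over all TEC loci this left 16 higher and 6 lower of 44 tested, beside 31.2% and 25.4% of all rows.

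Particl, an lncRNA transcribed from the promoter of Mat2a (the methionine adenosyltransferase catalytic subunit) and known for its response to low-dose irradiation, is a TEC gene in this annotation and was named after its values were seen. Its locus (chr6:72438683-72440615, plus strand) overlaps Mat2a in part. It had 115, 155 and 157 in chromatin and 132, 211 and 162 in nucleoplasm, and the groups overlapped (log2 fold change -0.23 ± 0.23; limma, adjusted p = 0.449). With ERCC scaling the log2 fold change was 0.50 (limma, adjusted p = 0.228), and over the settings tried it ran from -0.42 to 0.50. The Mat2a row had 16231, 15954 and 12054 in chromatin and 8611, 8139 and 8114 in nucleoplasm, a log2 fold change of 0.82 (limma, adjusted p = 0.00318).

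By position, 16 TEC loci lay wholly inside an opposite-strand gene, 11 overlapped such a gene in part and 19 lay outside. The short-read counting used strand; how many reads of a host gene were carried over to the opposite strand was not measured. Loci inside were less abundant, with a median of 5.87 normalized counts over the 6 libraries, against 18.5 for partial overlap and 74.5 outside. Higher in chromatin were 6 of 16 inside (37.5%), 3 of 11 partial (27.3%) and 6 of 19 outside (31.6%), beside 26.9% of all rows. Lower were 1 inside and 4 outside, beside 20.9% of all rows. The count of 6 inside was 3 without chromatin replicate 1, chromatin replicate 3, nucleoplasm replicate 1 or nucleoplasm replicate 2, each left out alone. Of all rows 23.4% to 27.6% were higher in those fits. The count was 2 with edgeR or with quantile normalization, beside 21.6% and 20.2% of all rows. The median log2 fold changes were 0.88, 0.72 and 0.67 in that order, and the difference of 0.21 between inside and outside changed sign under several settings, so no order of the groups is given. For 7 inside loci no exon of the host was crossed, and 3 of these were higher in chromatin; of the 9 that crossed an exon, 3 were.

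Summed counts by position rested on few loci. Inside loci summed to 1536, 1375 and 1637 in chromatin and to 608, 668 and 604 in nucleoplasm, a ratio of means of 2.42. Gm37621 alone gave 61.2% of the chromatin mean and 10.9% of the nucleoplasm mean. Without it, an alternative chosen after seeing the data, the other 15 inside loci summed to 584, 615 and 565 in chromatin and to 543, 608 and 524 in nucleoplasm, a ratio of 1.05, and the groups overlapped. Outside loci summed to 4882, 4501 and 5178 in chromatin and to 2949, 2802 and 2773 in nucleoplasm, a ratio of 1.71, or 2.45 without Gm49089. Partial loci summed to 1101, 1202 and 851 against 945, 1116 and 731, a ratio of 1.13, or 0.905 without Gm34220, and these groups overlapped.

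Gm37621 (chr9:101117648-101124068, plus strand) lies in Ppp2r3a, a regulatory subunit of protein phosphatase 2A, and crosses no exon of it. It had 951, 759.8 and 1072 in chromatin and 65.7, 59.9 and 79.7 in nucleoplasm. Every chromatin library stood far above every nucleoplasm library, and the log2 fold change was 3.74 ± 0.19 (limma, adjusted p = 3.57e-05). Per kb of span over the 6 libraries the locus had 77.6 normalized counts and the Ppp2r3a row 50.8. In nucleoplasm alone, at means of 68.4 for the locus and 4180 for the Ppp2r3a row, the row was the denser. Ppp2r3a itself had 12689, 11518 and 8009 in chromatin and 4761, 4625 and 3154 in nucleoplasm (log2 fold change 1.36; limma, adjusted p = 0.00408). Gm45760, named after its values were seen, lies inside Got2, the mitochondrial aspartate aminotransferase. It had 32.5, 27.2 and 69.7 in chromatin and 2.02, 1.20 and 2.17 in nucleoplasm (log2 fold change 3.88 ± 0.49; limma, adjusted p = 0.00106) and shared 10.5% of its 50-base words with other genes. Got2 went the other way, with 2594, 3018 and 2453 against 9630, 9733 and 11172 (log2 fold change -1.92; limma, adjusted p = 5.57e-05).

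The genes opposite the TEC loci were followed as a list fixed by position. Of 28 coding genes, 26 had a row above 0, and 13 of these were higher in chromatin, 3 were lower and 10 were not called by limma. Of all rows 26.9% were higher and 20.9% lower, and of rows averaging 100 normalized counts or more 30.7% and 42.5%. Their median log2 fold change was 0.42, against 0.86 for the TEC loci opposite them. The TEC locus had the higher log2 fold change in 17 of 26 pairs. Across the 26 pairs Pearson's r of the 2 log2 fold changes was -0.28 and Spearman's rho -0.14. The sign differed by position: r was -0.56 and rho -0.48 over the 15 hosts that contain the locus, and 0.47 and 0.30 over the 11 that overlap it in part. Pairs share libraries and size factors and are not independent, and the difference was not tested. Per kb of span over the 6 libraries, the median ratio of host row to TEC locus was 22.0. The TEC locus was the denser in 5 pairs. These, named after their values were seen, were Gm37621, D330025C20Rik, Gm10524, Gm13320 in Tmem236 and Gm37416 in Malrd1. Of these Gm37416 shared 79.6% of its 50-base words with other genes, Gm13320 shared 58.7% and Gm10524 shared 26.9%, so their counts per kb are uncertain. The order could differ within a fraction. In nucleoplasm alone Ppp2r3a was denser than Gm37621, and in chromatin alone 1700016A09Rik was denser than its host Gse1. At the other end Gm44101 had 0.0351% of the counts per kb of Itpr1.

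At 6 loci no read was recovered from any nucleoplasm library, and each of the 46 had reads in chromatin. For 4 of the 6 chromatin also averaged no more than the floor of 3 reads per library, and no fold is given. The other 2, named after their values were seen, entered the list through chromatin values alone, and neither passed the test. Gm38331 had 6.10, 0 and 6.24 in chromatin, a mean at least 1.40-fold above the floor (limma, adjusted p = 0.12). Gm44101 had 10.4 in chromatin replicate 3 and 0 elsewhere, at least 1.18-fold (limma, adjusted p = 0.403). Among loci with a mean of at least 100 normalized counts, 6 of 15 were higher (40.0%) and 3 lower (20.0%), beside 30.7% and 42.5% of all rows of that abundance. With a mean under 10, 4 of 17 were higher (23.5%), beside 16.5% of rows. From 10 to 100, 5 of 14 were higher (35.7%) and 2 lower (14.3%), beside 34.6% and 8.59%.

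The long-read chromatin libraries are separate from the short-read ones, but both assemblies were guided by a reference annotation. Their assembly did not use strand of origin, and the deposited TPM hold no depth. A long-read transcript above 0 TPM shared at least 1 bp with 41 of 46 TEC loci (89.1%), beside 90.0% of all assembled loci above 0. The strand given to the transcript matched for 35 loci (76.1%, beside 83.2%). Reciprocal overlap of at least 0.5 of both spans, on either strand, was found for 32 (69.6%, beside 73.5%). At Gm33378, Gm37416 and Particl, among others, the transcript was a RefSeq model with the same span as the locus. How far such matches rest on the shared guide was not tested. On either strand, at least 1 TPM in both libraries was reached for 28 (60.9%, beside 79.6%), the widest gap to all assembled loci among these 4 counts. This count includes transcripts given the other strand, as was the only transcript at Gm45760. A same-strand transcript above 0 TPM in both libraries was found for 22 loci (47.8%, beside 75.2%). By position, 16 of 16 inside, 11 of 11 partial and 14 of 19 outside loci were overlapped on either strand, and 13, 9 and 13 on the same strand. Transcripts named by the long-read assembly itself overlapped 20 loci (43.5%), beside 74.1% of all assembled loci; apart from the 5 loci that met no long-read transcript, the others met transcripts listed under a reference accession alone.

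Loci without long-read overlap were not the least abundant in short reads. The 5 loci with no long-read transcript on either strand had a median of 112 normalized counts in chromatin, and the 41 with a transcript a median of 29.3. The former were Gm38166, Gm43970, Gm10616, G430049J08Rik and 1600023N17Rik, all outside opposite-strand genes. Their spans ran from 204 to 1008 bp. Gm44101 stood at the other end: listed in 1 short-read library, its transcripts in reciprocal overlap summed to 19.9 and 8.10 TPM in long-read replicates 1 and 2. It lies inside Itpr1, the inositol trisphosphate receptor, whose short-read row averaged 113455 normalized counts in chromatin, and as the long reads were aligned without strand, those of the 2 genes cannot be told apart.

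Next in summed TPM of transcripts in reciprocal overlap came Gm6740 with 18.1 and 9.07 TPM in replicates 1 and 2, Gm43219 with 5.19 and 9.72, Gm33378 with 8.60 and 5.24, and Gm44950 with 4.23 and 6.70. At Gm43219 the transcript was a RefSeq model of the other strand, and the locus of Gm43219, with a span of 52245 bp, rose in chromatin from 4.04, 7.19 and 5.80 in nucleoplasm to 34.6, 30.4 and 29.1 (log2 fold change 2.30 ± 0.36; limma, adjusted p = 0.00257). At Gm44950 the long-read model covered 98.6% of the locus and ran 773 bp past its 3′ end. At Gm37352 the long-read model (2.31 and 4.28 TPM) covered 98.5% and ended 94 bp past the locus. Gm43891, the highest in chromatin, was met only by same-strand transcripts without reciprocal overlap, at 10.9 and 4.83 TPM. Gm49089 was met by a single transcript on the other strand, at 19.5 and 23.2 TPM.

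The 3′ ends of the TEC genes were read because poly(A) signals belong to the evidence behind the models. AATAAA or ATTAAA, the most common hexamers of the poly(A) signal, was found on the sense strand within the last 50 bases of 28 of 46 TEC genes (60.9%). The share was 28.9% of all 3204 autosomal TEC genes, 49.9% of autosomal protein-coding transcripts and 34.2% of transcripts of all types other than TEC. Among the TEC loci, AATAAA itself was found in 19. A hexamer was present at 14 of 19 outside, 8 of 11 partial and 6 of 16 inside loci. Of the 28 loci with a hexamer, 9 were higher and 3 lower in chromatin (median log2 fold change 0.69), and of the 18 without, 6 and 2 (median 0.88), beside 26.9% higher and 20.9% lower of all rows. The median length of the TEC transcripts was 2039.5 bases, against 1953 for all TEC genes, and the median GC content 48.9% against 42.3%.

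The last 50 bases are shown for the 7 rises and 5 falls described above among loci that averaged 50 normalized counts or more, and for Particl, from GENCODE M21 transcripts on mm10, each 5′ to 3′ on the strand of the gene. Capitals mark AATAAA or ATTAAA, and overlapping matches run together. A match describes the letters only, and the assembled locus need not end there: the locus of Gm43970 stops 1757 bases short of the annotated end, and that of Gm37352 runs 1663 bases past it.
Gm43891 (chr6:90299284-90299333, plus strand): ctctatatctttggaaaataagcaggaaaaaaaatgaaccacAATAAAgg
Gm43970 (chr2:39727550-39727599, plus strand): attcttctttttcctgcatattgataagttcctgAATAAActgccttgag
Gm37352 (chr8:84203000-84203049, plus strand): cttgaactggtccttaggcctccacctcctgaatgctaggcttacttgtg
Gm37621 (chr9:101122182-101122231, plus strand): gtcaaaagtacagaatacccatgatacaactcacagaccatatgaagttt
Gm33378 (chr10:82017181-82017230, plus strand): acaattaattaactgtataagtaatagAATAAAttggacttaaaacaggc
Gm31024 (chr7:28167275-28167324, minus strand): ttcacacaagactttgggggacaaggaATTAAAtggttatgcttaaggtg
Gm34220 (chr12:108790035-108790084, minus strand): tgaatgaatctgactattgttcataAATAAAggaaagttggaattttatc
Gm13320 (chr2:14189623-14189672, minus strand): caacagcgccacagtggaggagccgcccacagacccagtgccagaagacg
Gm38166 (chr3:45775424-45775473, minus strand): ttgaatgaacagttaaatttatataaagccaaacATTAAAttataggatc
Gm44950 (chr7:79922572-79922621, minus strand): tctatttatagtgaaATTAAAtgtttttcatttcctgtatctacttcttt
1700001G17Rik (chr1:33670663-33670712, plus strand): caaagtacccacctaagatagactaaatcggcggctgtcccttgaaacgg
Gm6740 (chr14:52860985-52861034, minus strand): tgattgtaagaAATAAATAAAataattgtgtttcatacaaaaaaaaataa
Particl (chr6:72440561-72440610, plus strand): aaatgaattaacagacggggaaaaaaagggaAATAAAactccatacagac

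Among the rises shown, Gm37352 and Gm37621 held neither hexamer in this window, while Gm43891, Gm43970, Gm33378, Gm31024 and Gm34220 each held a match. Of the 5 loci lower in chromatin, Gm38166, Gm44950 and Gm6740 held a match and Gm13320 and 1700001G17Rik did not. In Gm43891 the hexamer ended 2 bases before the annotated end, and in Gm38166 it ended 10 bases before. Where the assembled locus ended within its TEC transcript, which was so for 16 loci, 7 had a hexamer in the last 50 bases before that end. Among these 7, the loci of D330025C20Rik, 4930413G21Rik, Gm37500, Gm26596 and Gm38331 had the span of a RefSeq model. Whether such an end came from reads or from the reference that guided the assembly was not tested.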

How the data were processed

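The authors aligned 50 bp stranded reads to mm10 with HISAT2 2.1.0, assembled both fractions with StringTie and took gene counts from its prepDE script; the deposited signal is counts divided by DESeq2 size factors, not scaled for length. Every value (100%) was a whole multiple of 1 read, within a relative 1e-06. For long reads the authors deposited StringTie TPM per library from unstranded alignments.

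Members and lists were chosen with earlier results of these data known. Overlaps used GENCODE M21. In R 4.3.3, limma 3.58.1 with its trend option was fitted on log2(normalized count + 1) over all rows, two-sided, with Benjamini-Hochberg adjustment over the table. edgeR 4.0.16 and DESeq2 1.42.0 on recovered reads were alternatives. Named loci were the largest rises and falls (at most 8 each) with an adjusted p under 0.05, a mean of at least 50 and the same direction in 3 same-numbered pairs, the 6 densest per kb, the 5 highest in long-read TPM and their hosts. The code was tested on simulated data. The floor was 3 reads per library; counting error is all that floors and bounds include, and replicates spread wider than that. Tables were made in pandas 2.3.3 and numpy 2.4.6 under Python 3.11.15.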

Additional observations from a re-analysis of the deposited data

How the results depend on the processing

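In all 16 alternative settings Gm45760, Gm37621, Gm37352, Gm43970, Gm43891, Gm31024 and Gm33378 stayed higher in chromatin at an adjusted p under 0.05. Other calls changed, and the cause was not tested. With a pseudocount of 10, 5 loci were more than 4-fold higher and the median log2 fold change was 0.34. Of all 35830 rows 2981 were then more than 4-fold higher, against 5526 in the main fit. Their median was 0.13. With ERCC scaling 0 were lower by limma (1 at an unadjusted p under 0.05), beside 8.67% of all rows. The median was 1.37, beside 0.84 over all rows, and Gm10524 turned to 0.69. With quantile normalization 8 were higher (5 more than 4-fold) and 9 lower (2 more than 4-fold), with a median of 0.16. Of all 35830 rows 3502 were then more than 4-fold higher and 2466 more than 4-fold lower. Their median was 0.0087. With replicate number as a block 8 were lower, beside 23.6% of all rows. Of these 8, 1 (Gm43823) was more than 4-fold lower, beside 1779 of all 35830 rows. Both fractions came from the same 3 cultures by the authors' description. That equal numbers mark a culture is a hint from the data. After removing fraction means, libraries of the same number correlated best (r = 0.0975, 0.0883 and 0.222). More than 4-fold lower was Gm43823 alone, 1 locus, with a mean of at least 10 and, again 1, with values above 0 in at least 3 libraries. Of the rows kept by these filters, 1705 of 23911 and 1771 of 28924 were more than 4-fold lower. The inside minus outside median of 0.21 became -0.15 with a pseudocount of 10, -0.043 with either filter, -0.17 with ERCC scaling and -0.044 without both libraries numbered 3, an alternative chosen after seeing the data. It was 1.32 with a pseudocount of 0.1, 1.94 with edgeR and 1.87 with DESeq2. With the most abundant locus of each position group left out, also chosen after seeing the data, the ratio of summed counts was 1.05 inside, 0.905 partial and 2.45 outside. Loci higher inside numbered 3 with a mean of at least 10, 2 with quantile normalization, 2 with edgeR and 3 with DESeq2. In that order 33.1%, 20.2%, 21.6% and 24.1% of all rows were higher. Leaving out 1 library at a time gave 3 to 5 lower, 0 to 1 more than 4-fold lower by limma, 3 to 6 higher inside, and -0.063 to 0.51 for inside minus outside. Over all rows these fits gave 18.7% to 21.8% lower and 23.4% to 27.6% higher. Calls were lost most often at 4933440N22Rik (8 settings), Gm10829, Gm35808 and Gm38320 (7 each) and Gm6740 (6). DESeq2 gave no adjusted p for 4 loci. Long-read overlap fell to 20 loci with assembled transcripts only, and the hexamer count to 7 in the last 50 bases of the 16 assembled ends that lie in a TEC transcript. The planned count of A-rich stretches after annotated ends was not run.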
